A study of Equus caballus with 6 samples.

Results

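The messages of 4 matrix metalloproteinases (MMPs) were followed in equine tenocytes with and without a siRNA against scleraxis (Scx). MMP1 (ENSECAG00000023733), MMP2 (ENSECAG00000000953), MMP3 (ENSECAG00000000750) and MMP13 (ENSECAG00000005506) were taken by identifier from the 26992 entries of the deposited table, of which 14281 had at least 1 read. All 4 MMPs had reads, and 3 of them had enough to enter the test across genes, for which MMP1 had too few.

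Tenocytes came from the superficial digital flexor tendon of a single adult female horse and were used at passage 3. They were nucleofected either with a non-targeting scramble siRNA (scramble control, 3 libraries) or with 1 siRNA against the equine Scx mRNA (Scx siRNA, 3 libraries). Both groups were then plated on silicone coated with type I collagen and, once adhered, moved to medium with 1% serum. Both were stretched at 1% strain and 0.5 Hz for 2 h per day over 3 days, so no group was without load. RNA was taken soon after the last stretch, and polyA RNA was sequenced. All 6 libraries come from the cells of that horse, so p-values measure the spread between these libraries and not between animals. Because bulk RNA was measured, fewer cells of a type and less message per cell cannot be told apart.

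The groups differed in the siRNA that was nucleofected, and its strands are shown for that reason. Capitals mark bases 2 to 8 of the antisense strand, the seed through which a siRNA first pairs with a message.
Scx siRNA, sense: agagaaaguugagcaaggatt
Scx siRNA, antisense: uCCUUGCUcaacuuucucugg

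MMPs are zinc-dependent enzymes that are secreted, or held at the cell surface, as inactive proenzymes. They work once the propeptide has been removed, and tissue inhibitors of metalloproteinases (TIMPs) block them. The collagenases MMP1 and MMP13 cut the triple helix of fibrillar collagens, of which tendon is mostly made. The gelatinase MMP2 cuts the unwound chains that this leaves, along with basement membrane collagen. MMP3, a stromelysin, cuts proteoglycans and fibronectin and can activate other proenzymes. Tenocytes use these enzymes for the slow turnover of the tendon matrix, and the enzymes are also known from degenerating tendon. Scx is a basic helix-loop-helix transcription factor used as a marker of tendon cells. In the RefSeq annotation of the horse assembly TB-T2T, matched by symbol and not by identifier, MMP1, MMP3, MMP12 and MMP13 follow each other in this order as neighbouring protein-coding genes, and MMP2 lies on another chromosome.

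The libraries held 6539504 to 12213421 reads counted on genes. The median SD of a gene on the log2 scale was 0.59 among Scx siRNA libraries and 0.16 among scramble control libraries (11517 genes). The second Scx siRNA library stood apart from the other two of its group. A chi-square of the reads per degree of freedom was 121 and 128 between it and them, against 26.4 between those 2 libraries and 7.69 to 15.3 within the scramble control. For Scx itself, the study found significantly less mRNA in these Scx siRNA samples, by qPCR and by mapped reads. It linked the low read coverage of Scx to GC bias. In the deposited values Scx had 5, 7 and 25 reads in the scramble control and 5, 0 and 0 in Scx siRNA. These few reads did not set the first Scx siRNA library apart from the scramble control. The levels of the MMPs and their main ratios are therefore also given without the first and without the second Scx siRNA library. Of 9 genes listed as tenocyte markers, 8 had reads, and the list summed to between 140215 and 142901 normalized counts in scramble control libraries and between 152366 and 172798 in those of Scx siRNA. That sum is mostly COL1A2 and DCN. Of the 7 markers tested DCN was higher, COL1A1 was lower and 5 did not pass, where 25.0% of all genes tested passed. The median log2 fold change of the 7 was -0.79. The listed marker without reads was TNMD, whose use as a tenocyte marker is less supported in horses according to the study. It was at 0 reads in every library, as were SELE of endothelium and CHODL of cartilage. ACAN, the other cartilage marker, had 435 to 568 normalized counts in scramble control libraries and 108 to 118 in those of Scx siRNA, and was lower by the test described next. The fibroblast markers VIM, FAP and PRRX1 summed to between 94504 and 100459 normalized counts in scramble control libraries and between 133350 and 185306 in those of Scx siRNA, with FAP higher by that test. The part of such differences in the MMP results was not tested.

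Values below are normalized counts (reads divided by the library's DESeq2 size factor) unless named otherwise. A log2 fold change is Scx siRNA minus scramble control on log2(normalized count + 1). A gene passed the test with an adjusted p under 0.05 from limma (two-sided, Benjamini-Hochberg over 11517 genes). Of all genes tested, 25.0% passed, 12.9% as higher and 12.1% as lower with Scx siRNA. Of the 3 MMPs tested, MMP13 was higher and MMP2 was lower, while MMP3 did not pass. Complete separation of the groups was common in these data, in 48.1% of genes (22.3% with every Scx siRNA library higher and 25.8% with every Scx siRNA library lower).

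**Figure D1:**
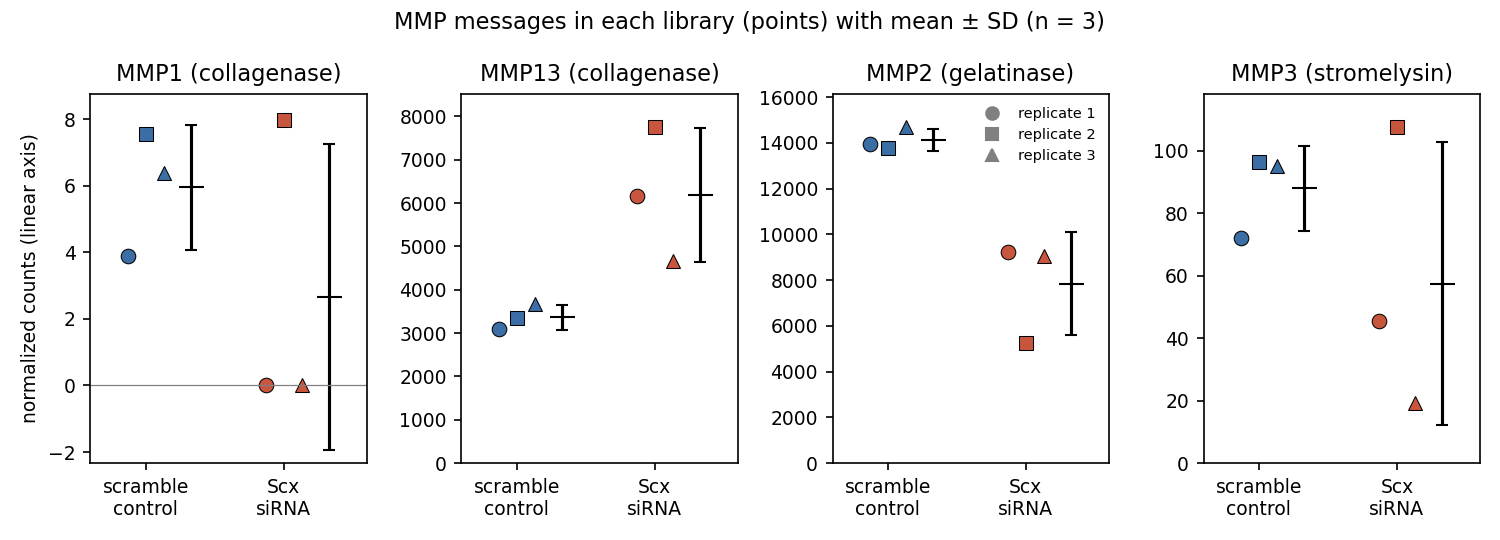
Normalized counts of MMP1, MMP13, MMP2 and MMP3 on linear axes in the 3 scramble control (blue) and 3 Scx siRNA (red) libraries, with the mean ± SD (n = 3) beside the points and a marker shape for each replicate number. MMP13 lies higher and MMP2 lower in every Scx siRNA library than in any scramble control library, and the second Scx siRNA library (square) is the highest of its group for MMP1, MMP13 and MMP3 and the lowest for MMP2.

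MMP13, the collagenase with nearly all of the collagenase reads, rose with Scx siRNA. Its normalized counts were 3092, 3344 and 3662 in the scramble control and 6159, 7752 and 4666 in Scx siRNA. Every Scx siRNA library lay above every scramble control library. The group means were 3366 ± 286 and 6192 ± 1543 (SD, n = 3 each), 1.84 times as high in Scx siRNA. The log2 fold change was 0.85 (standard error 0.22, 95% interval 0.34 to 1.36, adjusted p = 0.0286 from limma). This was below the log2 fold change of 1.5 that the study required of differentially expressed genes, a limit that 9.84% of genes passed together with the adjusted p. From these same samples the study still reported a rise of MMP13 and a fall of MMP2 with Scx knockdown. It described MMP1 and MMP3 as low and not affected.

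Where MMP13 lies in level, among 1713 genes whose mean was between 1000 and 5000 normalized counts, the median log2 fold change was 0.38 and 29.6% of genes passed as higher. Cyclic loess normalization, which takes out differences between libraries that follow the level, brought the median of these genes to 0.08. MMP13 was then at 0.48 (adjusted p = 0.0881). With quantile normalization it was at 0.44 (adjusted p = 0.109). With scaling to total reads it was at 0.57 (adjusted p = 0.0604), while the median of genes with a mean of at least 50 moved from -0.03 to -0.31. Relative to that median MMP13 stood at 0.88 under either scaling. In RPM (reads per 1000000 reads counted on genes), MMP13 had 387, 422 and 469 in the scramble control and 639, 758 and 517 in Scx siRNA, again without overlap. The log2 fold change was 0.67 without the second Scx siRNA library (adjusted p = 0.0139) and 0.84 without the first (adjusted p = 0.0698). The other libraries whose removal ended the call were those of the scramble control, each with an adjusted p between 0.0995 and 0.123.

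MMP1, the other collagenase, was close to the limit of detection. Scramble control libraries gave 4, 9 and 10 reads of it, and Scx siRNA libraries gave 0, 8 and 0. The 3 scramble control libraries lay at 0.489, 0.953 and 0.819 RPM, with exact Poisson 95% intervals of 0.133 to 1.25, 0.436 to 1.81 and 0.393 to 1.51. The second Scx siRNA library, at 0.780 RPM (0.337 to 1.54), fell within the range of the scramble control. For the 0 reads of the first and the third Scx siRNA library the same kind of interval ends at 0.471 and 0.564 RPM, above the lower ends of all 3 scramble control intervals. These intervals cover counting error only. Group means were 5.95 ± 1.87 and 2.66 ± 4.60 normalized counts (SD, n = 3 each). A two-sided exact permutation test gave p = 0.4 (p = 0.2 in RPM), where 0.1 is the smallest p that 3 libraries against 3 allow. Without the second Scx siRNA library the difference of the means was -5.95 normalized counts, and without the first it was -1.97. A limma fit over every gene with a value above 0, in which MMP1 could be included, gave a log2 fold change of -1.70 (adjusted p = 0.223). No change of MMP1 passed a test in these libraries, which had few reads of it and differed within the Scx siRNA group.

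MMP2, the gelatinase, fell with Scx siRNA. Its normalized counts were 13930, 13784 and 14685 in the scramble control but 9236, 5243 and 9072 in Scx siRNA. The first and the third Scx siRNA library were close to each other and the second was far lower, with all 3 below the scramble control. Group means were 14133 ± 483 and 7850 ± 2259 (SD, n = 3 each), so the mean fell by 44.5%. On the log2 scale its fold change was -0.89 (standard error 0.25, 95% interval -1.48 to -0.31, adjusted p = 0.0380 from limma).

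The fall went against the trend of genes at its level. Over the 91 genes whose mean reached 10000 normalized counts, the median log2 fold change was 0.30, and 15.4% of them passed as lower. Under the scalings that weakened the rise of MMP13, the fall of MMP2 was larger, at -1.29 with cyclic loess normalization, -1.26 with quantile normalization and -1.18 with scaling to total reads, and its adjusted p lay between 0.0138 and 0.0205. With scaling to total reads the median of genes with a mean of at least 50 moved from -0.03 to -0.31. Relative to that median MMP2 stood at -0.86 both as reported and with scaling to total reads. Relative to it MMP2 was at -1.26 with cyclic loess and -1.22 with quantile normalization. In RPM MMP2 went from 1746, 1737 and 1880 to 958, 513 and 1004. Leaving out the second Scx siRNA library gave -0.63 (adjusted p = 0.00653) on the log2 scale, and leaving out the first gave -1.03 (adjusted p = 0.0486). The call was lost when genes with any value above 0 entered the test (adjusted p = 0.0533) and when any 1 scramble control library was left out (adjusted p between 0.121 and 0.145).

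MMP3, the stromelysin, varied more among the Scx siRNA libraries than between the groups. Its normalized counts were 72.2, 96.6 and 95.3 in the scramble control and 45.6, 107.6 and 19.3 in Scx siRNA. The second Scx siRNA library was above all scramble control libraries on this scale, while the other two were below all of them. In RPM that library, at 10.5, lay inside the scramble control range of 9.04 to 12.2, so its place depends on the scaling. Within the Scx siRNA group the highest library had 5.57 times the level of the lowest, against 1.34 times in the scramble control. The log2 fold change of MMP3 was -0.91 (standard error 0.62, 95% interval -2.35 to 0.53, adjusted p = 0.30 from limma), an interval that holds falls larger than that of MMP2 as well as a small rise. The call depended on the second Scx siRNA library, since without it the log2 fold change was -1.52 with an adjusted p of 0.0294. Calls were more common in that fit, in which 4888 of 11517 genes passed, against 2882 with all libraries. The log2 fold change of MMP3 was -0.91 (adjusted p = 0.391) without the first and -0.31 (adjusted p = 0.606) without the third.

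**Figure D2:**
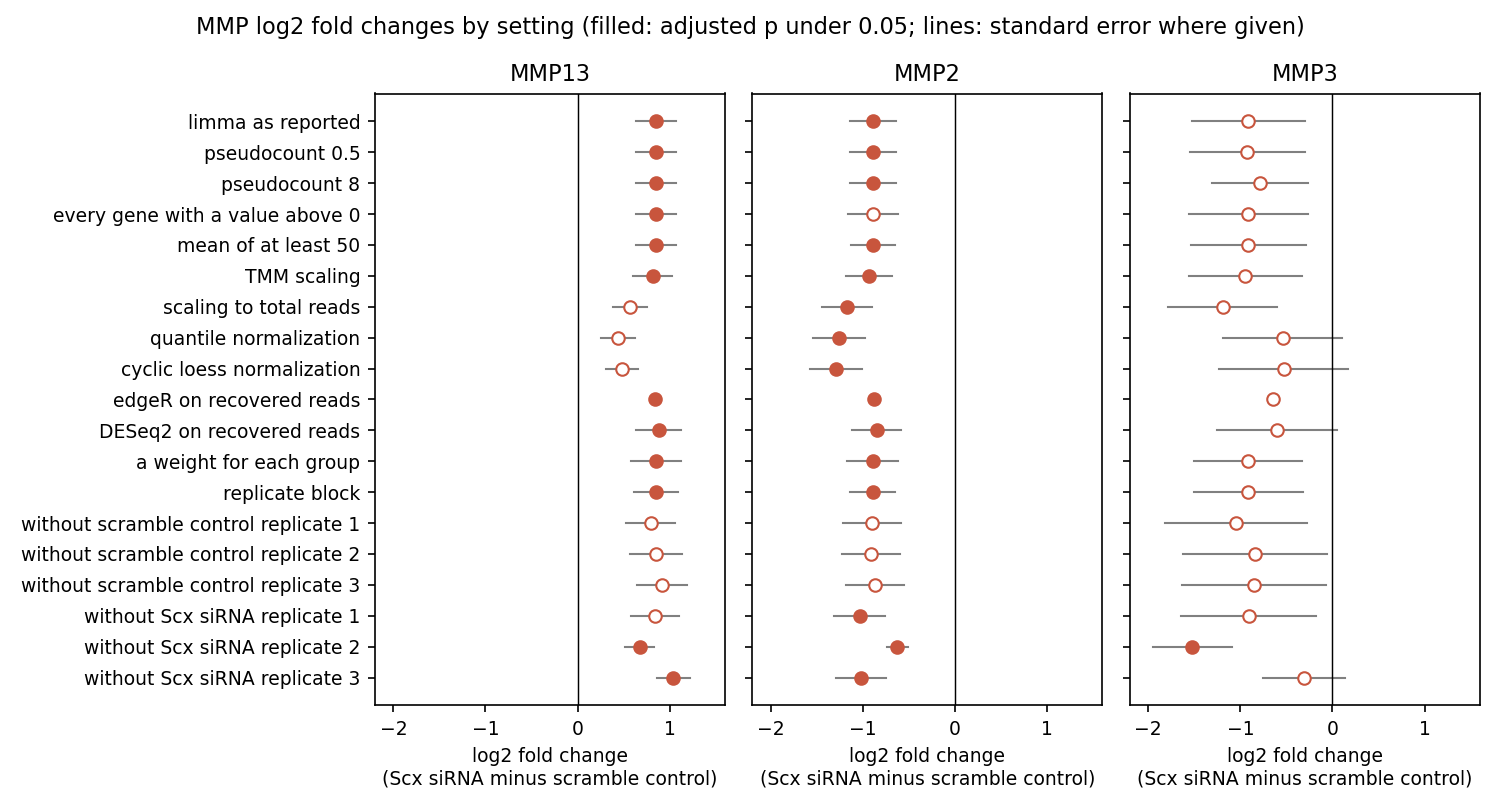
Log2 fold change (Scx siRNA minus scramble control, x axis) of MMP13, MMP2 and MMP3 under each fit (y axis), with filled points for an adjusted p under 0.05 and lines for the standard error (edgeR gives none). MMP13 stays above 0 and MMP2 below 0 in every fit shown, and MMP3 is filled only without the second Scx siRNA library.

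The balance of collagenase to gelatinase messages was taken within each library, as a ratio of reads, so that the scaling between libraries has no part in it. Reads also follow the length of a transcript, so the ratio itself does not rank the genes, but its change between libraries does not depend on length. The scramble control libraries had 22.2, 24.3 and 24.9 MMP13 reads for every 100 MMP2 reads. In the Scx siRNA libraries these numbers were 66.7, 147.8 and 51.4. The second Scx siRNA library was the only one of the 6 with more MMP13 than MMP2 reads.

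With the few MMP1 reads added, collagenases gave 18.1%, 19.5% and 19.9% of the reads of the 4 genes in the scramble control libraries. Their exact binomial 95% intervals, which cover counting error only, reached from 17.5% at the lowest to 20.4% at the highest. Collagenase reads made up 39.9% (39.0% to 40.8%), 59.2% (58.3% to 60.0%) and 33.9% (32.99% to 34.9%) in the Scx siRNA libraries. The 3 scramble control libraries thus lay within 2 percentage points of each other, whereas those of Scx siRNA differed from one another by far more than counting error. On the log2 scale the collagenase to gelatinase ratio averaged -2.07 ± 0.09 for scramble control and -0.33 ± 0.79 for Scx siRNA libraries (SD, n = 3 each), a difference of 1.74, or 3.35-fold. The groups did not overlap, and the two-sided exact permutation test gave p = 0.1, the smallest it can give. This followed from MMP13 being higher and MMP2 lower in every Scx siRNA library, so it is no further evidence. The difference was 1.30 without the second Scx siRNA library and 1.87 without the first. Because MMP13 and MMP2 moved in opposite directions, the ratio moved further than either gene.

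**Figure D3:**
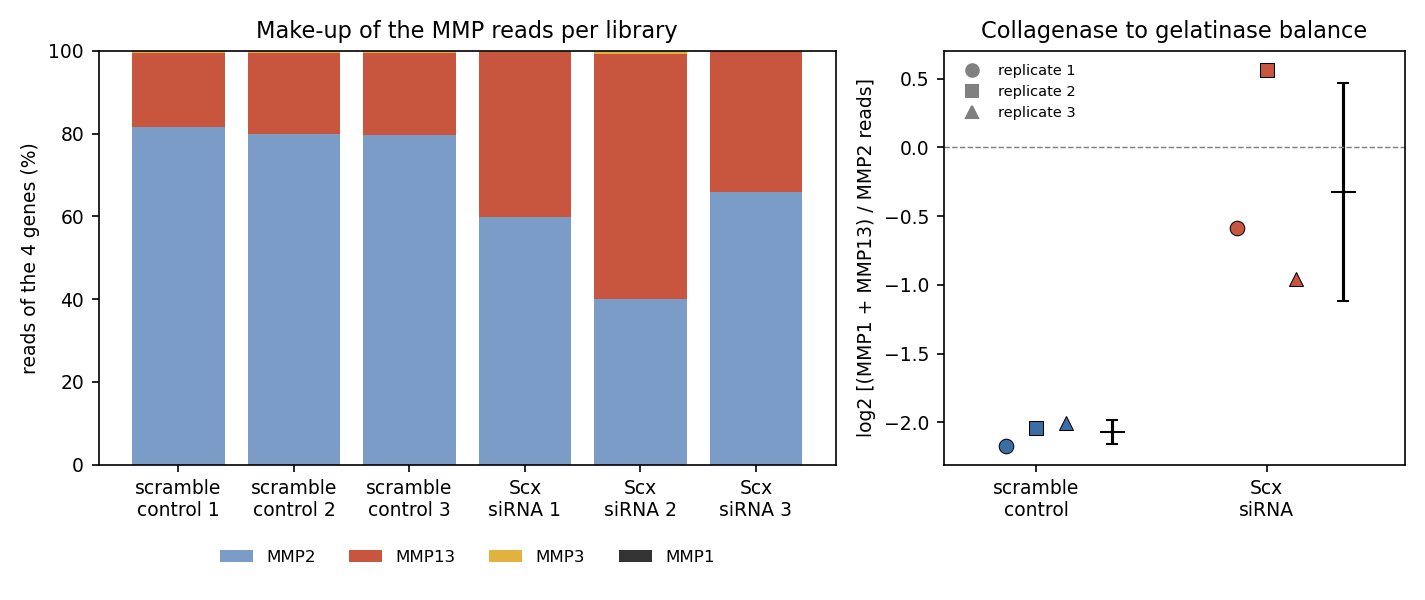
Left, the percentage of the reads of the 4 genes (y axis) that came from MMP2, MMP13, MMP3 and MMP1 in each library; right, log2 of MMP1 + MMP13 reads over MMP2 reads in each library, with the mean ± SD (n = 3) and a dashed line at equal reads. Collagenases take 18.1% to 19.9% of the reads of the 4 genes in scramble control libraries and 33.9% to 59.2% in Scx siRNA libraries. Only the second Scx siRNA library lies above the dashed line.

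All 4 MMPs together had 2143, 2172 and 2362 RPM in the scramble control and 1602, 1283 and 1523 in Scx siRNA. Their sum was lower in every Scx siRNA library, as MMP2 gave most of the MMP reads of the scramble control (79.6% to 81.5%). MMP3 also lost ground to MMP13. For every 1000 MMP13 reads there were 23.3, 28.9 and 26.0 MMP3 reads in the scramble control and 7.40, 13.9 and 4.14 in Scx siRNA. By this ratio all 3 Scx siRNA libraries lay below the scramble control, including the second, whose MMP3 level alone was not lower (two-sided exact permutation p = 0.1).

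The collagenase message was also set against the messages of the fibrillar collagens that collagenases cut. MMP13 had 18.2, 19.5 and 22.2 reads for every 1000 reads of COL1A1, COL1A2 and COL3A1 together in the scramble control. In Scx siRNA it had 38.3, 56.6 and 34.3. On the log2 scale this was a difference of 1.08, with no overlap (two-sided exact permutation p = 0.1), 2.11-fold, and it was 0.86 without the second Scx siRNA library and 1.15 without the first. Against COL1A1 alone, which also fell, the difference was 1.92. MMP2 moved the other way, from 82.0, 80.3 and 89.1 reads to 57.4, 38.3 and 66.7 reads per 1000 collagen reads, a log2 difference of -0.67 (exact permutation p = 0.1). Over the 12 ratios and sums computed, several of which share the same genes, every permutation p was 0.1, and so was each Benjamini-Hochberg adjusted p.

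The 4 genes also differed in how firm their levels were. Among the scramble control libraries the SD on the log2 scale was 0.05 for MMP2 and 0.12 for MMP13, below the median of all genes tested (0.16), and it was 0.23 for MMP3. Among the Scx siRNA libraries it was 0.46 for MMP2 and 0.37 for MMP13, again below the median (0.59), and it was 1.21 for MMP3. The order of the Scx siRNA libraries was the same for MMP13 and MMP3, with the second highest and the third lowest. For MMP2 the second was the lowest.

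Genes of matrix proteins that MMPs can cut, 16 in all, were taken from the gene tables of the study. The values in those tables came from these same samples, so the direction of the genes is not independent evidence. The most highly expressed genes were also chosen from these samples, whereas the tendon-selective genes came from earlier reports. Of the 16, 7 fell, 2 rose and 7 did not pass, and their median log2 fold change was -0.79 against -0.20 for all genes tested. Among all genes tested, 12.1% passed as lower and 12.9% as higher. The lower genes were ACAN (aggrecan, -2.10), LAMA5 (a laminin chain, -1.96), COL5A1 (-1.62), COL1A1 (-1.06), COMP (-0.92), COL6A3 (-0.82) and TNC (tenascin C, -0.78), with adjusted p-values from limma of 0.00281 to 0.0241. COL6A3, a chain of the beaded type VI collagen, fell from 50245 ± 2384 to 28470 ± 2145 normalized counts (SD, n = 3 each). The higher genes were the small leucine-rich proteoglycans LUM (1.23, adjusted p = 0.00951 from limma) and DCN (0.73, adjusted p = 0.0379), which bind collagen fibrils. The DCN call was lost in 6 of the 12 alternatives that kept all libraries, with adjusted p-values up to 0.189 and a log2 fold change down to 0.33 (cyclic loess normalization). With the replicate block, the adjusted p from limma was 0.0839 for DCN and 0.0526 for COL6A3. Leaving out any 1 scramble control library ended the calls of COL1A1, COL6A3, COMP, DCN, LUM and TNC, and leaving out the first Scx siRNA library ended those of COMP and DCN (adjusted p = 0.0579 and 0.0852 from limma). Of the collagenase substrates in the ratio above, COL1A2 was at 0.01 and COL3A1 at -0.30, neither past the test (adjusted p = 0.971 and 0.368 from limma).

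Other genes of the same tables, listed as proteases of the matrix or cell surface or as members of their families, numbered 5. Of these, 4 could be tested, 1 higher and 1 lower, where 25.0% of all genes tested passed. FAP, a serine protease of the fibroblast surface that cuts gelatin, rose from 9326 ± 806 to 31582 ± 5434 normalized counts (SD, n = 3 each). On the log2 scale this was 1.75 (standard error 0.20, adjusted p = 0.00308 from limma). It was past the test in every fit made. FAP and MMP2 both degrade gelatin, and their messages moved in opposite directions. CPXM2, a member of the carboxypeptidase family, fell from 246 ± 12.9 to 38.0 ± 31.6 normalized counts (log2 fold change -3.31, adjusted p = 0.0351 from limma). Without the third Scx siRNA library, which had 3 reads of it, the log2 fold change was -2.17 (adjusted p = 0.00769). The call was lost with cyclic loess normalization (adjusted p = 0.0627), without the first Scx siRNA library (adjusted p = 0.0565) and without any 1 scramble control library (adjusted p between 0.116 and 0.130). CTSK, or cathepsin K, which cuts collagen inside lysosomes and outside the cell, stood at 50839 ± 792 normalized counts in scramble control and at 50649 ± 1833 in Scx siRNA libraries (SD, n = 3 each). The 95% interval of its log2 fold change was -0.46 to 0.45 around -0.01. HTRA1, a secreted serine protease, had a log2 fold change of -0.31 (95% interval -1.25 to 0.64).

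Of 3 genes of the same tables listed as regulators of MMPs, 1 passed, where 25.0% of all genes tested passed. TGFB3, a growth factor of the transforming growth factor beta family, fell from 3333 ± 155 to 1644 ± 395 normalized counts (SD, n = 3 each). On the log2 scale this was -1.05 (standard error 0.21, adjusted p = 0.0146 from limma). Leaving out any 1 scramble control library ended this call (adjusted p between 0.0624 and 0.0821). TGFB1 had a log2 fold change of -1.27 (95% interval -2.51 to -0.04, adjusted p = 0.118), with wide spread among the Scx siRNA libraries. THBS1, a matricellular protein that can activate latent transforming growth factor beta and bind MMP2, had -0.25 (95% interval -0.81 to 0.31, adjusted p = 0.460).

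**Figure D4:**
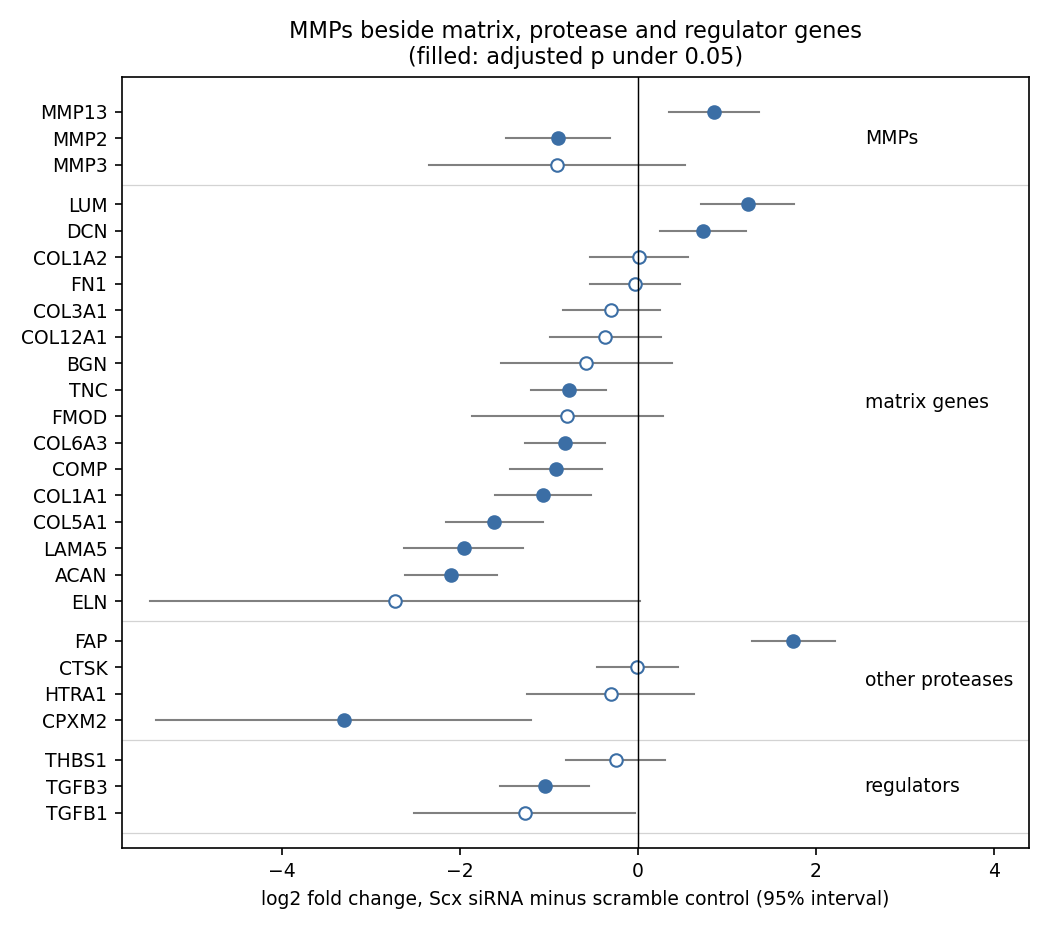
Log2 fold changes (Scx siRNA minus scramble control, x axis) with 95% intervals from limma for the MMPs, matrix genes, other proteases and regulators that could be tested (y axis, sorted within each group), filled where the adjusted p was under 0.05. MMP13 lies on the higher side with LUM, DCN and FAP, and MMP2 on the lower side with COL1A1, COL6A3, TNC and TGFB3.

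Likeness between genes was measured as Pearson's r on log2(normalized count + 1) over the 6 libraries, among genes named in the study's tables with a mean of at least 100, and is given as a description. All points share the same libraries and the same split into groups, so a difference between the groups in the same direction can by itself raise r. IL4RA (r = 0.996), TGFB3 (0.988) and XG (0.986) were most like MMP2, of 70 genes. IL4RA, a receptor chain for interleukin 4, had 1015, 1149 and 1296 normalized counts in the scramble control and 582, 211 and 532 in Scx siRNA, with the second library again the lowest. ASPN (0.956), a small leucine-rich protein, TPT1 (0.952) and CTNNB1 (0.937), or beta-catenin, were most like MMP13. ASPN had 36551, 53603 and 30037 normalized counts in the Scx siRNA libraries, the same order as MMP13. APP (0.963), CREBBP (0.906) and CPXM2 (0.884) were most like MMP3, of 71 genes.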

How the data were processed

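Adaptors and poor reads were removed with Trimmomatic by the authors, alignment to EquCab2 used HISAT2 2.0.3, HTSeq counted reads on Ensembl genes, and DESeq2 1.12.4 size factors scaled the libraries (versions from the submitters' processing notes). The authors deposited the scaled values, normalized counts that form a signal per gene with depth removed. The table also holds columns of the authors' own DESeq2 comparison, namely a mean, a log2 change with its error, a Wald score and p-values, none of which were used. The number in each column's name gave its sample. In every library 100% of the values were whole multiples of the smallest value within 1e-08 of their size, so whole reads could be recovered.

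The test across genes took those with a mean of 5 or more and was run with limma 3.58.1 on log2(normalized count + 1) (R 4.3.3; lmFit, eBayes with trend, no covariates). For genes with few reads such fold changes depend on the value added before the log and on the model. That of MMP3 was -0.92 with 0.5 added and -0.78 with 8 added. DESeq2 on the recovered reads gave -0.61 for it. The models were also run on simulated data. The condition to be met covered only limma, with the same spread in both groups and changes larger than those of the MMPs. The spread differed between the groups here, so that condition does not bear on the MMP calls. Single values and ratios were compared with two-sided exact permutation tests. Alternatives were a pseudocount of 0.5 or 8, all genes with a value above 0, a mean of at least 50, TMM, total reads, quantile and cyclic loess scaling, edgeR 4.0.16 (quasi-likelihood) and DESeq2 1.42.0 on the recovered reads, a weight for each group, a block for the replicate number, and leaving out each library. Named genes are the MMPs, Scx, the listed genes past the test and the 3 genes most like each tested MMP. COL1A2, COL3A1, CTSK, HTRA1, TGFB1 and THBS1, which did not pass, were picked for printing after their values were seen.

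The members, lists and alternatives were chosen with earlier results of these data known. Identifiers of TIMPs and other MMPs were not paired with names in the sources used here, so these genes were not analysed here, and neither were markers of leukocytes, other MMP activators and MMP sequences.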

Additional observations from a re-analysis of the deposited data

How the results depend on the processing

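Leaving out any 1 library kept the direction of every MMP result. The log2 fold change ranged from 0.67 to 1.04 for MMP13, from -1.03 to -0.63 for MMP2 and from -1.52 to -0.31 for MMP3. The balance ranged from 1.30 to 2.06, MMP13 over collagen from 0.86 to 1.23, and the difference of MMP1 from -5.95 to -1.97 normalized counts. The number of higher genes ranged from 352 to 2297 and of lower genes from 124 to 2591. The low ends came on leaving out a scramble control library, and the high ends on leaving out the second Scx siRNA library. Of the 12 alternatives that kept all libraries, 9 left the call of MMP13 in place, including edgeR and DESeq2 on the recovered reads. It was lost with scaling to total reads (0.57), quantile normalization (0.44) and cyclic loess normalization (0.48). For MMP2, 11 of 12 left the call in place, the exception being every gene with a value above 0 (-0.89). MMP3 did not pass in any of the 12, at log2 fold changes from -1.19 to -0.53. Scaling to total reads gave 959 higher genes of 3031 called, or 31.6%, against 1487 of 2882, or 51.6%, as reported. The cause of these losses was not tested.

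The study repeated the experiment 3 times, so libraries with the same replicate number may share a run. After removal of the group means, samples with the same replicate number did not deviate together across genes (r of -0.08, 0.02 and 0.17). With 3 libraries per group this cannot exclude a shared run, and results are therefore also given with the replicate block. It gave 0.85 for MMP13 (adjusted p = 0.0460), -0.89 for MMP2 (adjusted p = 0.0430) and -0.91 for MMP3 (adjusted p = 0.293, all from limma), and with it 2117 genes were called. Pairing the balance gave the same difference (1.74), and an exact sign-flip test over 3 pairs gave p = 0.25, the smallest possible. The block ended the calls of DCN (adjusted p = 0.0839) and COL6A3 (adjusted p = 0.0526). The 12 other list genes past the test kept their direction in all 216 fits and lost the call in 40 of them, 24 of which left out a scramble control library. MMP1 had 0 to 10 reads a library, and its 3 Scx siRNA libraries also differed among themselves.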
